A study of Mus musculus with 2 samples.

Results

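The cells described here are the 475 cells of the passage 20 culture that were highest in a score of 5 genes, *Chac1*, *Cth*, *Trib3*, *Ddit3* and *Asns*, out of 4749 passage 20 cells kept and 14699 cells kept from both cultures of the series. They were chosen by measured values. Cells with more than 1000 genes and under 20% of unique molecular identifiers (UMIs, tags of single captured RNA molecules) from mitochondrial genes were kept, the UMIs of the 5 genes were summed and divided by all UMIs of the cell, and the top 10% were taken. The other 4274 kept passage 20 cells are the contrast. Since the same counts chose the cells and gave the values, every comparison of these cells with the others is a description, and none was tested.

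Primary mouse brain pericytes (PCs), the mural cells of capillaries, were sequenced as single cells in droplets from the 3′ ends of their RNA, and each of the cultures, PC5 at passage 5 and PC20 at passage 20, gave 1 library. Both cultures came from brains of wild-type female C57BL/6N mice aged 6 to 8 weeks, with 6 mice pooled for each isolation, and were grown on collagen. By the study's methods each passage came from a separate isolation, so passage and isolation cannot be told apart. No treatment or genetic change was made. The PC20 library held 191306354 UMIs in 4884 barcodes and the PC5 library 223978480 UMIs in 10629 barcodes. The libraries shared 20 cell barcodes, all kept in both, and 1 of them was among the 475 cells. Levels are in CPM, which are UMIs of a gene, added up over the cells of a group, per 1000000 UMIs of that group, and a log2 ratio compares the CPM of the 475 cells with that of the others. With 3′ counting each molecule gives at most 1 UMI whatever its length, so levels were not scaled by length. Intervals are exact at the 95% level and cover counting error in 1 library only.

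The 5 genes belong to the integrated stress response. Kinases that sense lack of amino acids, unfolded protein in the endoplasmic reticulum, viral RNA or lack of heme phosphorylate the initiation factor eIF2 alpha, which lowers protein synthesis and raises translation of the transcription factor ATF4. ATF4, with partners such as C/EBP proteins, raises genes for amino acid synthesis, uptake and tRNA charging, and under lasting stress *Ddit3*, which encodes the transcription factor CHOP.

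Of the score genes, *Chac1* encodes an enzyme that degrades glutathione, *Cth* cystathionine gamma-lyase, which makes cysteine, *Trib3* a pseudokinase that restrains ATF4 and AKT, and *Asns* asparagine synthetase. On GRCm38, *Ddit3* lies on chromosome 10 from 127290774 to 127296288, *Chac1* and *Trib3* on chromosome 2 from 119351229 to 119354381 and from 152337422 to 152344032, *Cth* on chromosome 3 from 157894248 to 157925077, and *Asns* on chromosome 6 from 7675169 to 7693254. The last 68 bases of *Ddit3* overlap the 3′ end of *Mars*, which runs on the opposite strand and was at 33.8 CPM in the 475 cells and 40.3 CPM in the others. A further annotated gene on the same strand, ENSMUSG00000116429, lies within *Ddit3* from 127290829 to 127293753 and ends 2535 bases before the end of *Ddit3*. It had 0 UMIs in the kept cells of both libraries, and how reads that fall in both genes were counted was not tested.

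RefSeq promoter windows of build GRCm38.p6, from 250 bases before to 50 bases after the start site, were found for 4 of the 5 genes. The windows were searched on both strands for TGATGNAA, the C/EBP-ATF response element through which ATF4 acts, and for TGACTCA, the AP-1 element bound by FOS and JUN proteins. The matches of the motifs printed here do not overlap. TGATGNAA was present in 3.97% and TGACTCA in 5.20% of all 32851 windows. The stretches are printed because 3 of the genes share the element and *Ddit3*, which carried the score, held the other. Capitals mark the match, and each sequence is read 5′ to 3′ along the gene. *Chac1*, *Trib3* and *Asns* held TGATGNAA, and *Ddit3* held TGACTCA. A match is a description of the letters and not a bound site, and no match in this window says nothing about the factor.
Chac1, chr2:119350992-119351191, plus strand: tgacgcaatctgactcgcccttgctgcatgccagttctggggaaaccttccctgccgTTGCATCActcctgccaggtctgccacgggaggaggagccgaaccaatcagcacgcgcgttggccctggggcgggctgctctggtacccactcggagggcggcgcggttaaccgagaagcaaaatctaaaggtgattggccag
Trib3, chr2:152344028-152344057, minus strand: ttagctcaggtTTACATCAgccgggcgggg
Asns, chr6:7693214-7693243, minus strand: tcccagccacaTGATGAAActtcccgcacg
Ddit3, chr10:127290543-127290742, plus strand: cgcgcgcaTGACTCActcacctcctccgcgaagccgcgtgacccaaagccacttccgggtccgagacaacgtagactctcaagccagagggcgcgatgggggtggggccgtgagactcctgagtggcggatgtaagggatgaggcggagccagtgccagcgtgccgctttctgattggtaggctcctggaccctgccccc

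The score had no gap at the threshold. The lowest of the 475 cells had 23.34 score UMIs per 10000 and the highest of the others 23.32, with 191 cells within 5% of the threshold, 81 of them among the 475. The median was 27.4 per 10000 in the 475 cells, 13.3 in the others and 14.0 in all kept PC20 cells. The threshold was thus 1.67 times the median cell, and the 475 cells are the upper end of a continuous range. A median of 79 score UMIs per cell stood behind the score in the 475 cells and 46 in the others.

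The 475 cells had fewer UMIs than the others. Their median was 27039 UMIs and 4726 genes per cell, against 34543.5 UMIs and 5467.5 genes. The score divides by the UMIs of the cell, so depth was not independent of the choice of cells. The 474 cells with the lowest scores also had a low median, 29578.5 UMIs. Mitochondrial genes took a median of 1.66% of UMIs against 2.08%, and ribosomal protein genes 29.7% in both groups. Scrublet called 0 of the 4749 cells doublets, so no doublet was removed, and whether doublets remained is not known.

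The score was carried by *Ddit3*. *Ddit3* gave 79.5% of the score UMIs of the 475 cells and 60.1% in the others, and it had the most UMIs of the 5 genes in all 475 cells, against 88.0% of the others. Of the difference in summed score CPM between the groups, 94.9% was *Ddit3*. *Ddit3* was at 2326 CPM in the 475 cells (2302 to 2351) and 777 CPM in the others (773 to 781), a log2 ratio of 1.58 (1.57 to 1.60). Per cell, *Ddit3* ran from 10.5 to 49.9 UMIs per 10000 in the 475 cells with a median of 21.9, and from 0 to 23.1 in the others with a median of 7.43, so the groups overlapped even in the gene that chose them.

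The 4 other score genes differed less than *Ddit3*. *Trib3* was at 202 CPM against 137 CPM (log2 ratio 0.55, 0.50 to 0.61), and its ratio was 0.39 with *Trib3* left out of the score. *Cth* was at 66.5 CPM against 61.4 CPM (0.12, 0.02 to 0.21) and *Asns* at 281 CPM against 260 CPM (0.11, 0.06 to 0.16). Neither sign was stable: with the gene itself left out of the score, the log2 ratio was -0.11 for *Cth* and -0.095 for *Asns*, and for *Asns* it was -0.02 in the top 5% of cells. *Chac1* was lower in the 475 cells, at 49.4 CPM against 56.2 CPM (-0.19, -0.30 to -0.08), although its UMIs counted towards the score, but the sign was not stable: the ratio was 0.21 when cells were chosen after thinning and 0.03 in the top 20% of cells. Together these 4 genes had a median of 5.94 UMIs per 10000 in the 475 cells and 5.44 in the others, with ranges of 0.551 to 15.4 and 0 to 18.6. All 5 genes had a UMI in 205 of the 475 cells (43.2%) and in 2327 of the others (54.4%), which also held more UMIs per cell.

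**Figure D1:**
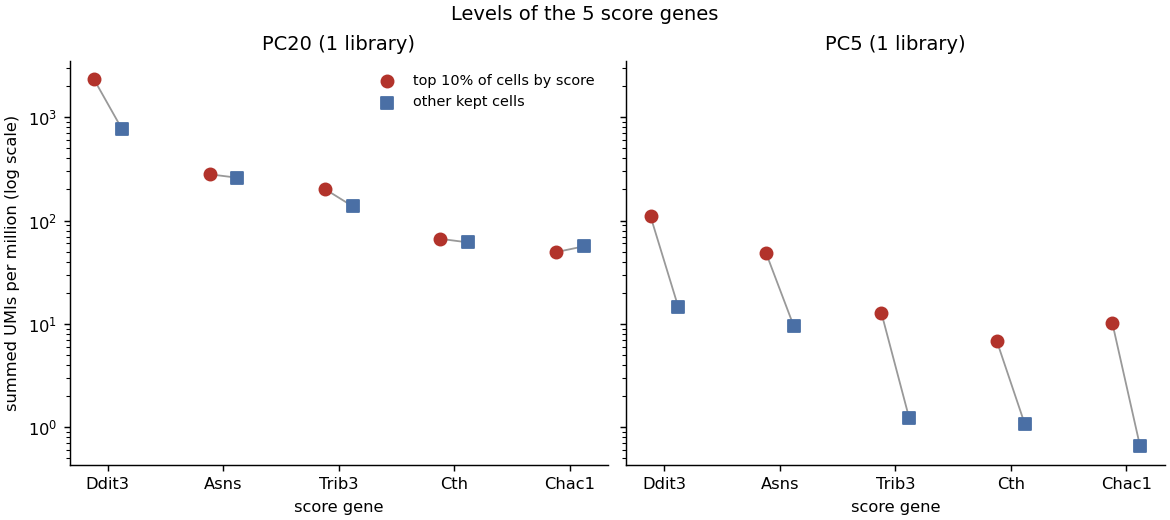
Level of each score gene in CPM on a log axis, in the top 10% of cells by score (circles) and the other kept cells (squares), for PC20 on the left and PC5 on the right, with 1 library each. In PC20 *Ddit3* stands at 2326 against 777 CPM, *Trib3* at 202 against 137 CPM and the other 3 genes closer together, while in PC5 all 5 genes are apart.

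**Figure D2:**
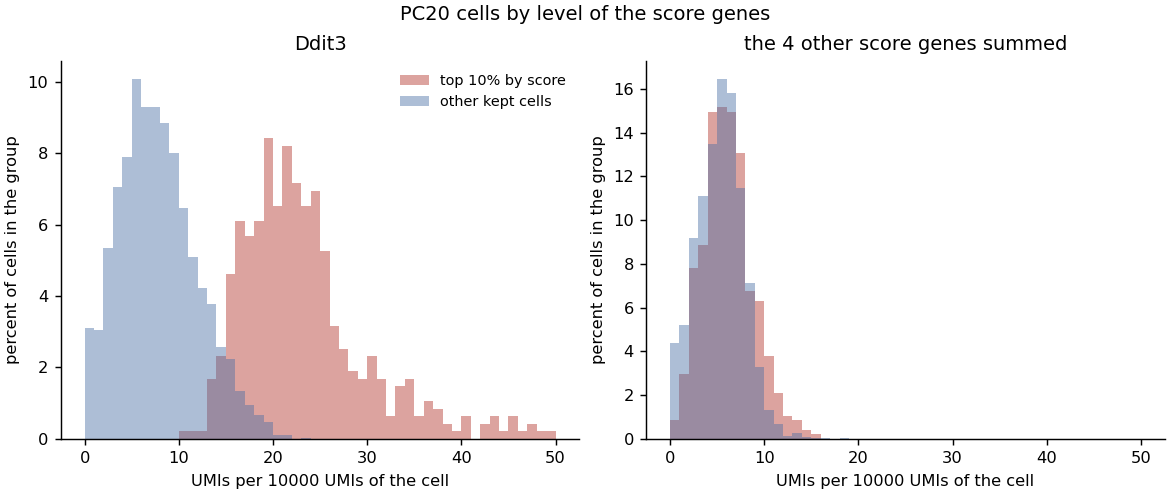
Share of cells, in percent of each group, by UMIs per 10000 UMIs of the cell for *Ddit3* (left) and the 4 other score genes summed (right) in PC20. The median for *Ddit3* is 21.9 in the top 10% (red) and 7.43 in the other cells (blue), and for the 4 other genes 5.94 and 5.44, with largely overlapping distributions and the top 10% slightly higher (upper quartile 7.84 against 6.96).

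Of the 475 cells, 395 (83.2%) were also in the top 10% by *Ddit3* alone. Only 88 (18.5%) were in the top 10% by the summed UMIs of the 4 other genes, 63 (13.3%) in that by *Asns*, 128 (26.9%) in that by *Trib3*, 48 (10.1%) in that by *Cth* and 44 (9.26%) in that by *Chac1*. Each such set holds 475 cells, 10% of those kept. When the 5 genes were given equal weight, as the mean of their z-scores, 140 (29.5%) of the 475 cells were in the top 10%. The top 10% by hypoxia response genes, targets of the HIF transcription factors, held 145 (30.5%) of them, that by the other ATF4 regulators and targets 101 (21.3%) and that by serine pathway genes 25 (5.26%). Over 4474 PC20 cells thinned to an equal number of UMIs, which share 1 library, Pearson's *r* of *Ddit3* on log counts was 0.19 with *Trib3*, 0.06 with *Asns*, 0.00 with *Cth* and -0.03 with *Chac1*, against 0.36 with the hypoxia gene *Ndrg1*. These values are a description. Of the 475 cells, 452 were deep enough to be thinned. A *Cth* UMI was then seen in 42.3% and a *Chac1* UMI in 35.2% of these 452, so those counts were sparse.

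Amino acid stress is the working name under which these cells were set apart. It is not kept here, since *Ddit3* carried the score. Of the difference in summed score CPM, 94.9% came from the transcription factor gene *Ddit3*, the most abundant of the genes that chose the cells. *Trib3* was higher too, with a log2 ratio of 0.55, and of 0.70 with cells chosen after thinning. Its own UMIs counted towards the score, and with *Trib3* left out of the score the ratio was 0.39. The genes of amino acid metabolism below differ little between the groups. Summed over all kept cells, however, the 5 score genes were at 1415 CPM in PC20 and 40.3 CPM in PC5. The contrast cells of PC20 thus expressed the score genes too. A small difference between the groups therefore does not show whether either was under amino acid stress, which was not tested. The chosen cells are called *Ddit3*-high cells from here on.

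Among the 9951 genes, score genes included, with a UMI in at least 10% of kept PC20 cells, which are the genes counted here, 113 (1.14%) were at least 1.5-fold higher in the *Ddit3*-high cells and 435 (4.37%) at least 1.5-fold lower. The median log2 ratio over all of them was -0.08. These counts come from the contrast that chose the cells and are read only as the level against which the lists below are set.

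Of the 26 regulators and targets of ATF4 outside the score, 1 was at least 1.5-fold higher and 0 lower, with a median log2 ratio of 0.09. The gene was *Ddit4*, which encodes an inhibitor of the growth kinase mTORC1 and is also a hypoxia and glucocorticoid target, at 121 CPM against 64.5 CPM (0.91, 0.83 to 0.98). With equal weights for the 5 score genes it was at 55.6 CPM against 69.9 CPM (-0.33). *Nupr1*, a stress-induced chromatin protein, was at 502 CPM against 344 CPM (0.55, 0.51 to 0.58). *Atf4* mRNA itself was at 472 CPM against 430 CPM (0.13, 0.10 to 0.17), with a UMI in 99.4% of the *Ddit3*-high cells and 98.2% of the others. *Cebpb*, a partner of ATF4 and CHOP, was at 462 CPM against 367 CPM (0.33, 0.30 to 0.37), and *Eif4ebp1*, a brake on cap-dependent translation, at 920 CPM against 895 CPM (0.04, 0.01 to 0.07). *Jdp2*, an AP-1 family repressor, had the lowest ratio (-0.45, -0.56 to -0.34). The sum of the list was 4757 CPM against 4198 CPM, so the list was above all counted genes by a small margin with 1 member past the fold.

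The enzymes that ATF4 raises to make serine, glycine and one-carbon units were not higher in the *Ddit3*-high cells. Of 14 counted genes of this list 0 were at least 1.5-fold higher and 1 was lower, the cytosolic serine hydroxymethyltransferase *Shmt1* at 3.67 CPM against 6.60 CPM (-0.85, -1.27 to -0.45), and the median was -0.16. *Phgdh*, which opens serine synthesis, was at 396 CPM against 447 CPM (-0.18, -0.22 to -0.14). *Psat1*, the next enzyme, was at 200.1 CPM against 230.0 CPM (-0.20, -0.26 to -0.15) and *Psph*, the last, at 199 CPM against 222 CPM (-0.15, -0.21 to -0.10). *Mthfd2*, of the mitochondrial folate pathway, was at 223 CPM against 229 CPM (-0.04, -0.09 to 0.02), and *Aldh1l2*, of the same compartment, was highest in the list at 227 CPM against 201 CPM (0.18, 0.13 to 0.23). All 3 genes of the serine synthesis pathway thus lay below the level of the other cells, by less than the fold of 1.5.

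Amino acid transporters gave 0 of 15 counted genes higher and 1 lower, with a median log2 ratio of -0.12. *Slc3a2*, the heavy chain that carries several transporters to the membrane, was highest at 447 CPM against 330 CPM (0.44, 0.40 to 0.47). Because of *Slc3a2* the summed level of the list was slightly higher, 1074 CPM against 1010 CPM, while the median was below 0. *Slc7a11*, the cystine importer, was at 123 CPM against 124 CPM (-0.01, -0.08 to 0.06), and *Slc38a2*, a neutral amino acid transporter induced by starvation, at 169 CPM against 176 CPM (-0.05, -0.11 to 0.01). The lysosomal transporter *Slc36a1* was lowest (-0.81, -1.35 to -0.32) at 2.35 CPM against 4.13 CPM.

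Of the 23 cytosolic aminoacyl-tRNA synthetases and their scaffold proteins, which charge tRNAs, 0 were at least 1.5-fold higher or lower, and the median was -0.02, with a summed log2 ratio of 0.02. The highest was *Sars* for serine (0.27, 0.23 to 0.31) and the lowest *Mars* for methionine (-0.26, -0.39 to -0.12). *Eprs*, the most abundant, was at 648 CPM against 591 CPM (0.13, 0.10 to 0.16). Of the 15 mitochondrial synthetases 1 was higher and 3 were lower, with a median of -0.30. The higher gene was *Lars2* at 60.8 CPM against 40.1 CPM (0.60, 0.50 to 0.70), and the lowest was *Mars2* at 2.28 CPM against 3.99 CPM (-0.81, -1.36 to -0.30). The direction of the mitochondrial list was not stable. Its median was 0.05 after thinning, 0.13 with equal weights for the score genes and 0.15 without *Ddit3*, with 0 lower in each.

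Glutathione and redox genes were close to level. Of 15 counted transsulfuration and glutathione enzymes 0 passed the fold in either direction (median -0.03, summed log2 ratio 0.02), among them *Gclm*, the regulatory subunit of the enzyme that starts glutathione synthesis, at 944 CPM against 960 CPM (-0.02, -0.05 to 0.00). Of 15 NRF2 targets 0 passed it as well (median 0.05), with the ferritin light chain gene *Ftl1* at 11781 CPM against 9611 CPM (0.29, 0.29 to 0.30).

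Of the 10 counted genes for eIF2 alpha, its kinases and related sensors, 0 passed the fold (median -0.06). *Eif2ak2*, the kinase that senses double-stranded RNA, was lowest at 37.6 CPM against 53.7 CPM (-0.51, -0.64 to -0.39), and *Ern1*, the IRE1 sensor of unfolded protein, was highest at 37.9 CPM against 29.8 CPM (0.35, 0.22 to 0.47). The kinases act through phosphorylation, which RNA counts do not measure.

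Chaperones of the endoplasmic reticulum, which the ATF6 and IRE1 arms of the unfolded protein response raise, were mostly above the others by less than the fold. Of 21 genes 19 had a log2 ratio above 0, 1 was at least 1.5-fold higher and 0 lower, and the median was 0.26. *Hspa5*, the BiP chaperone, was at 4085 CPM against 3105 CPM (0.40, 0.38 to 0.41) and *Hsp90b1* at 2420 CPM against 2008 CPM (0.27, 0.25 to 0.29). *Manf*, a secreted stress factor, was at 965 CPM against 722 CPM (0.42, 0.39 to 0.44). The gene past the fold was *Dnajb9*, a co-chaperone induced through XBP1, at 77.4 CPM against 51.3 CPM (0.59, 0.50 to 0.68), just over the fold of 1.5. No chaperone was past the fold after thinning, as a mean over cells, without *Ddit3* in the score or with equal weights, where *Dnajb9* had a ratio of 0.07.

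**Figure D3:**
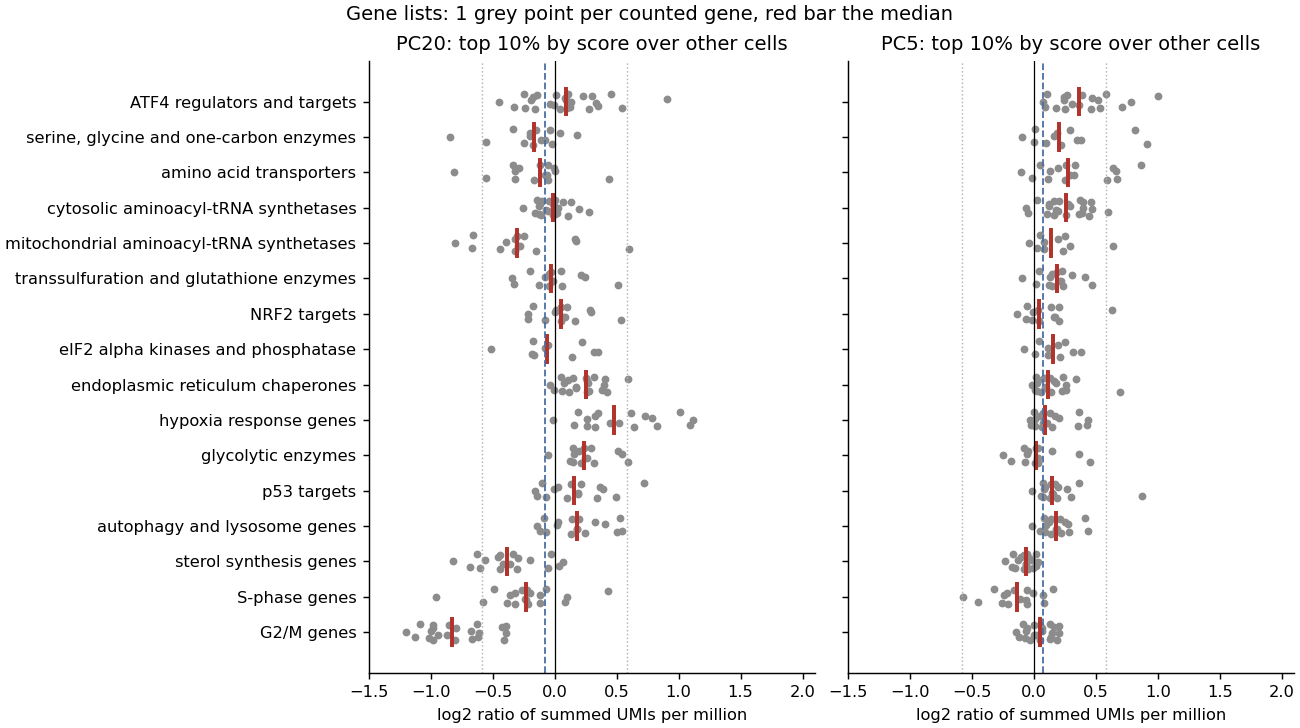
Log2 ratio of the top 10% by score over the other cells for each counted gene (grey points) of 16 gene lists, with the list median as a red bar, the median of all counted genes as a dashed line and 1.5-fold in both directions as dotted lines, for PC20 (left) and PC5 (right). In PC20 the hypoxia list has the highest median (0.48) and the G2/M list the lowest (-0.83), and the amino acid lists lie near the dashed line. In PC5 the G2/M median is 0.05.

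The list with the most members at least 1.5-fold higher was that of hypoxia response genes. Of 18 counted genes 8 were at least 1.5-fold higher and 0 lower, the median was 0.48, and the sum was 8765 CPM against 6367 CPM. *Ndrg1*, a growth-restraining gene raised by hypoxia, was at 567 CPM against 261 CPM (1.12, 1.08 to 1.15), with a median of 4.62 UMIs per 10000 against 1.92 and a UMI in 97.7% of cells against 93.0%. *Bnip3*, a mitophagy receptor, was at 827 CPM against 540 CPM (0.61, 0.59 to 0.64), and *Ero1l*, an oxidase of the endoplasmic reticulum, at 3493 CPM against 2569 CPM (0.44, 0.43 to 0.46). The oxygen sensor gene *Egln3* was level at 110.1 CPM against 111.1 CPM (-0.01, -0.09 to 0.06). Of the 15 glycolytic enzymes 1 was higher, the low-level *Eno2* at 8.93 CPM against 5.91 CPM (0.59, 0.32 to 0.86), and the median was 0.23. No enzyme of the list was past the fold after thinning, in the top 20% of cells, without *Ddit3* or with equal weights, where *Eno2* had a ratio of -0.09. *Gapdh* was at 3503 CPM against 2858 CPM (0.29, 0.28 to 0.31).

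Of the 10 genes outside the score with the highest ratio among 5199 named genes of at least 20 CPM, 3 are in the hypoxia list, *Ndrg1*, *Ankrd37* (87.7 CPM against 41.2 CPM, 1.09, 1.00 to 1.17) and the glycolytic regulator *Pfkfb3* (76.6 CPM against 38.01 CPM, 1.01, 0.92 to 1.10). *Hilpda*, a lipid droplet gene that hypoxia raises in many cells, was at 95.5 CPM against 44.0 CPM (1.12, 1.03 to 1.201). The clock repressors *Nr1d1* (129 CPM against 54.6 CPM, 1.24, 1.17 to 1.31), *Bhlhe40* (173 CPM against 77.9 CPM, 1.15, 1.09 to 1.21) and *Bhlhe41* (133 CPM against 69.3 CPM, 0.94, 0.87 to 1.01) were among them too. The remaining 3 were the kinase anchor *Akap12* (72.4 CPM against 20.3 CPM, 1.84, 1.74 to 1.94), the PI3K inhibitor *Pik3ip1* (44.3 CPM against 19.7 CPM, 1.17, 1.04 to 1.29) and *Nfkbia*, the inhibitor of NF-kappaB (169 CPM against 78.5 CPM, 1.11, 1.05 to 1.17). *Akap12* was the highest of the 10 but had a UMI in only 225 *Ddit3*-high cells (47.4%) and 1244 others (29.1%), and 10 cells held 25.6% of its UMIs in the *Ddit3*-high cells. *Nfkbia* had a UMI in 69.3% of the *Ddit3*-high cells and 59.1% of the others, with 21.7% of its UMIs in 10 of the 475 cells, while for *Ndrg1* that share was 9.34%.

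These leading genes depended on the weight of *Ddit3* in the score. With *Ddit3* left out, 0.834% of counted genes were at least 1.5-fold higher and 2.66% lower in the top 10%, which had log2 ratios of -1.19 for *Akap12*, -1.76 for *Nfkbia*, -1.08 for *Nr1d1* and -0.55 for *Bhlhe40*. The hypoxia genes were then near level, with -0.01 for *Ndrg1* and a list median of 0.09, with 0 of 18 past the fold. The serine list had a median of 0.32 and the cytosolic synthetases one of 0.36 in that set, whose log2 ratio of *Ddit3* was 0.03. The serine and synthetase medians were thus below 0 in the cells highest in the whole score and above 0 in the cells highest in the 4 other genes, sets of 475 cells that shared 88.

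**Figure D4:**
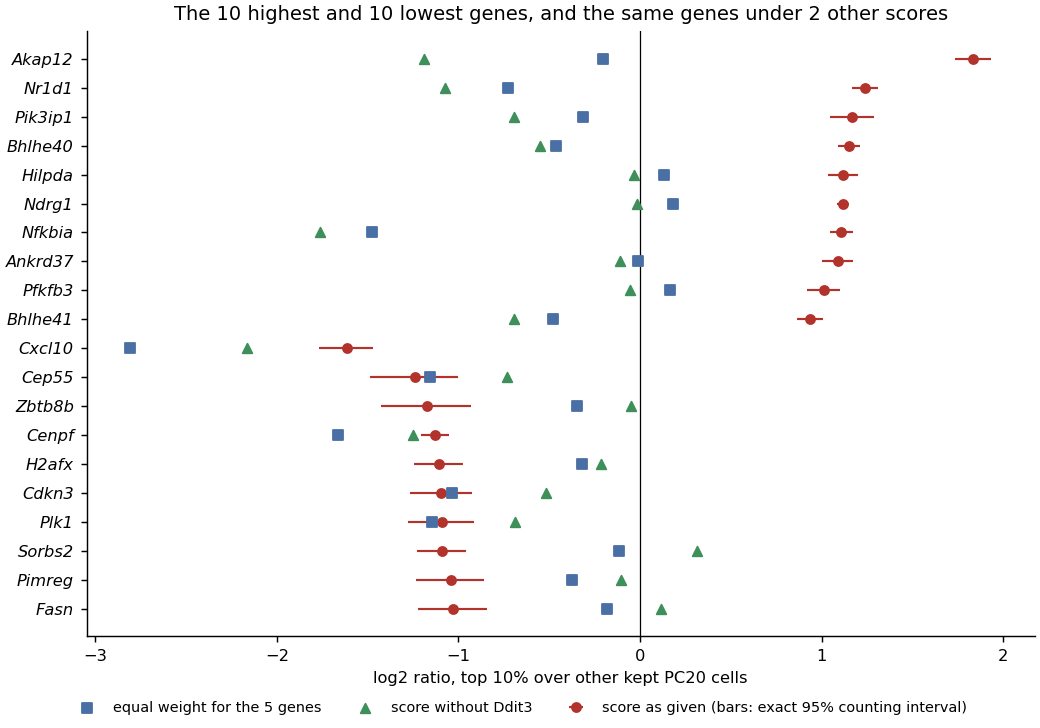
Log2 ratio of the top 10% over the other PC20 cells for the 10 highest and 10 lowest named genes, with exact 95% counting intervals (red), beside the same genes when the 5 score genes have equal weight (blue squares) and when *Ddit3* is left out (green triangles). *Akap12* goes from 1.84 to -0.20 and -1.19, while *Cenpf*, *Cep55* and *Plk1* stay below 0 in all 3 sets.

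Genes of cell division were lower in the *Ddit3*-high cells. Of 22 G2/M genes, which act in mitosis, 0 were at least 1.5-fold higher and 18 were lower, all 22 were below 0, and the median was -0.83, with a sum of 1354 CPM against 2228 CPM. In the set chosen without *Ddit3* 8 of 22 were lower, with a median of -0.46. Low values were not particular to the *Ddit3*-high cells. The 474 cells with the lowest scores had a G2/M sum of 1726 CPM. *Mki67* was at 105 CPM and *Top2a* at 148 CPM in them, against 108 CPM and 189 CPM in the *Ddit3*-high cells. Over the 4474 thinned PC20 cells, Pearson's *r* of *Ddit3* was -0.01 with *Mki67* and 0.03 with *Top2a*. The mitotic kinesin *Kif20a* was lowest at 9.06 CPM against 20.9 CPM (-1.20, -1.47 to -0.95). The kinetochore gene *Cenpf* was at 97.5 CPM against 213 CPM (-1.13, -1.21 to -1.05) and the ubiquitin-conjugating *Ube2c* at 195 CPM against 312 CPM (-0.68, -0.73 to -0.62). The mildest ratios were those of *Top2a* (-0.43, -0.48 to -0.37), *Tpx2* (-0.41, -0.48 to -0.35) and *Aurkb* (-0.39, -0.52 to -0.26). S-phase genes were closer to level, with 0 of 19 higher, 1 lower and a median of -0.23. *Cdt1*, which licenses replication origins in G1, was highest in that list at 52.997 CPM against 39.4 CPM (0.43, 0.32 to 0.53).

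A UMI of *Mki67* or *Top2a*, which mark cycling cells, was seen in 286 of the 475 *Ddit3*-high cells (60.2%, 55.7 to 64.6) and 3142 of the 4274 others (73.5%, 72.2 to 74.8, Clopper-Pearson). After thinning every cell to the same number of UMIs, which left out 23 and 252 shallower cells, the shares were 225 of 452 (49.8%, 45.1 to 54.5) and 2387 of 4022 (59.3%, 57.8 to 60.9). No cell type that lacks these genes was in the library to give a background share. Genes of absent lineages were at 0 UMIs (*Ptprc*) or in 0.0632% of cells (*Csf1r*). Depth and cycling both differed with the score, and their part in the differences of other genes was not tested. When cells that had either UMI were left out, where the rule gave 132 cells, the hypoxia median was 0.45 and *Ddit3* had a log2 ratio of 1.71. Among cells under the median UMI count the hypoxia median was 0.52 and the G2/M median -0.26, and among cells at or over it they were 0.40 and -0.48.

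The 10 lowest named genes also held *Cep55* (10.2 CPM against 24.0 CPM, -1.24, -1.49 to -1.004), *Plk1* (18.1 CPM against 38.5 CPM, -1.09, -1.28 to -0.91), *Cdkn3* (19.9 CPM against 42.5 CPM, -1.09, -1.27 to -0.92) and *Pimreg* (16.6 CPM against 34.2 CPM, -1.04, -1.24 to -0.86), all of mitosis, and the histone gene *H2afx* (33.1 CPM against 71.2 CPM, -1.11, -1.24 to -0.98). *Fasn*, the fatty acid synthase gene, was at 16.6 CPM against 33.9 CPM (-1.03, -1.22 to -0.84). *Sorbs2*, a cytoskeletal adaptor, was at 32.4 CPM against 69.1 CPM (-1.09, -1.23 to -0.96) and the zinc finger gene *Zbtb8b* at 9.69 CPM against 21.9 CPM (-1.17, -1.43 to -0.93). The interferon-induced chemokine *Cxcl10* had the lowest ratio, 26.7 CPM against 81.9 CPM (-1.62, -1.77 to -1.47), but 10 cells held 81.9% of its UMIs in the *Ddit3*-high cells, and 51 of them (10.7%) had any against 823 others (19.3%).

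Of 18 sterol synthesis genes 0 were at least 1.5-fold higher and 4 were lower, with a median of -0.39. The median was 0.14 with equal weights for the 5 score genes and 0.22 without *Ddit3*, with 0 lower in both, and 2 of 17 were lower after thinning. *Hmgcs1*, an early enzyme of the pathway, was lowest at 40.0 CPM against 70.9 CPM (-0.83, -0.95 to -0.71), while *Fdps* was at 239 CPM against 233 CPM (0.04, -0.01 to 0.09) and *Insig1*, a feedback inhibitor, at 160 CPM against 153 CPM (0.06, 0.00 to 0.13). Of 17 autophagy and lysosome genes 0 passed the fold, with a median of 0.18 and the cargo receptor *Sqstm1* at 1012 CPM against 807 CPM (0.33, 0.30 to 0.35). Of 16 p53 targets 1 was higher, *Trp53inp1* at 31.5 CPM against 19.1 CPM (0.72, 0.58 to 0.86), with a median of 0.16, and the cell cycle inhibitor gene *Cdkn1a* was at 226 CPM against 199 CPM (0.18, 0.13 to 0.24). With equal weights *Trp53inp1* was at -0.50 and *Cdkn1a* at -0.34, with 0 of the 16 higher and 2 lower, and without *Ddit3* 0 were higher and 3 lower. Of 16 immediate-early and heat shock genes 1 was higher, *Fos* at 50.6 CPM against 31.6 CPM (0.68, 0.56 to 0.79), with a median of 0.01. With equal weights *Fos* was at 20.8 CPM against 34.1 CPM (-0.72), and 0 of the 16 were higher and 5 lower both there and without *Ddit3*.

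Across deciles of the score, *Ddit3* went from 259 CPM in the lowest to 1478 CPM in the ninth and 2326 CPM in the highest. *Asns* went from 111 CPM to 329 CPM in the eighth decile and was at 281 CPM in the highest. *Cth* was at 16.6 CPM in the lowest decile, 82.3 CPM in the seventh and 66.5 CPM in the highest, and *Chac1* at 24.9 CPM, 68.0 CPM in the eighth and 49.4 CPM. Of the 5 score genes, *Ddit3* and *Trib3* had their highest level in the highest decile, and the other 3 did not. Serine pathway genes summed to 1001 CPM in the lowest decile, 1835 CPM in the seventh and 1529 CPM in the highest. Cytosolic synthetases summed to 2245 CPM, 3852 CPM and 3570 CPM in those deciles, and amino acid transporters to 742 CPM, 1103 CPM and 1074 CPM. Each of these lists was thus higher in the seventh decile, where *Ddit3* was at 992 CPM, than in the lowest or the highest decile. They did not follow *Ddit3* at every step. The synthetases had their highest sum in the sixth decile, at 3869 CPM, and the serine genes went from 1822 CPM in the fifth to 1813 CPM in the sixth. Hypoxia genes summed to 3698 CPM in the lowest and 8765 CPM in the highest decile, and ER chaperones to 6367 CPM and 12424 CPM. G2/M genes were low at both ends, with 1726 CPM in the lowest decile, 2571 CPM in the second, 2107 CPM in the eighth and 1354 CPM in the highest. The lowest decile, which held a median of 29578.5 UMIs per cell, had the lowest sum of the 10 deciles for the serine, hypoxia and chaperone lists.

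**Figure D5:**
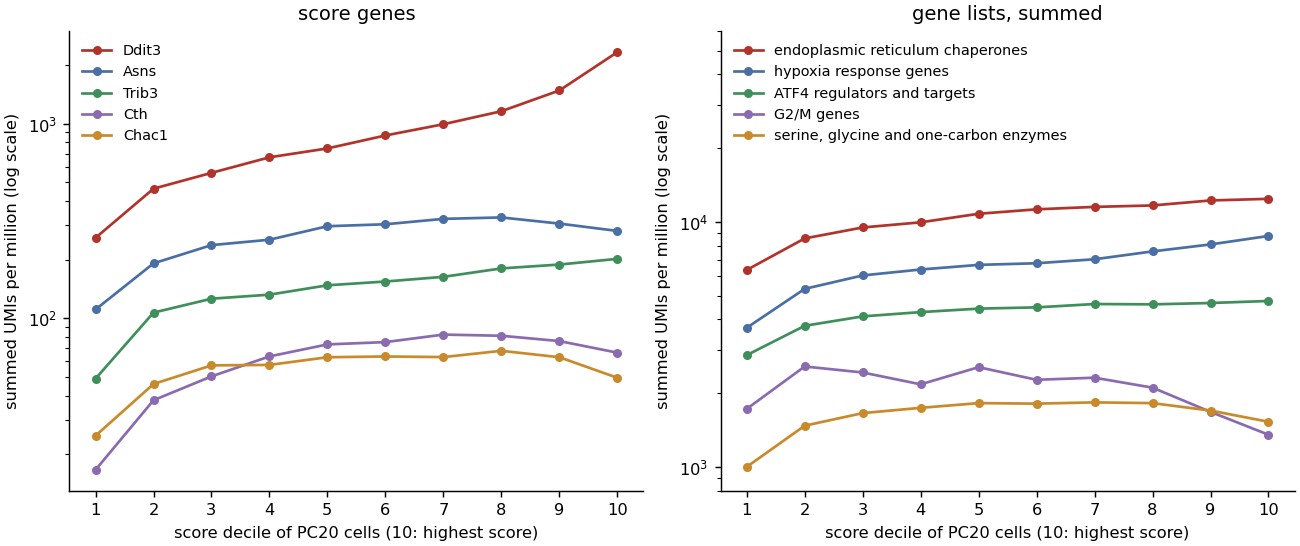
Summed CPM on a log axis by score decile of PC20 cells, with the score genes on the left and 5 gene lists on the right, where decile 10 is the *Ddit3*-high cells. *Ddit3* reaches 2326 CPM in the highest decile, while *Asns*, *Cth* and *Chac1* are below their values in the eighth.

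Marker lists of mural and other lineages are given with their sums and their defining genes. Of the 10 pericyte markers only *Pdgfrb*, the receptor that recruits pericytes, was counted, at 4.77 CPM against 5.48 CPM, with a UMI in 13.3% of the *Ddit3*-high cells and 16.8% of the others. *Rgs5*, *Kcnj8* and *Vtn* had 0 UMIs in PC20, *Abcc9* had 0 and 1, *Cspg4* 3 and 16, and *Anpep* 53 and 520 UMIs. Defining markers of the labelled cell type were thus absent or near 0 in this library. The list summed to 11.1 CPM against 11.5 CPM. Smooth muscle markers summed to 38.4 CPM against 53.6 CPM (summed log2 ratio -0.48), almost all *Acta2* (36.7 CPM against 50.2 CPM), with *Myocd* at 0 UMIs. Fibroblast markers summed to 113 CPM against 107 CPM, mostly *Col3a1*, with *Lum* at 0. Endothelial markers summed to 73.1 CPM against 74.6 CPM, nearly all *Flt1*, with 0 and 5 UMIs of *Cdh5*. Astrocyte markers summed to 220 CPM against 234 CPM, mostly *Slc4a4*, with *Gfap* at 0. *Slc1a3* was at least 1.5-fold higher, at 7.47 CPM against 4.27 CPM (0.81, 0.50 to 1.10), and made the median of the 2 counted markers positive (0.35). No astrocyte marker was past the fold in the top 20% of cells, without *Ddit3* or with equal weights, where *Slc1a3* had a ratio of 0.17. Oligodendrocyte markers summed to 11.001 CPM against 10.9 CPM, led by *Cnp* with *Mobp* and *Mag* at 0, neuron markers to 5.74 CPM against 5.18 CPM, led by *Tubb3* with *Rbfox3* and *Gad1* at 0, and microglia and blood markers to 0.138 CPM against 0.906 CPM, led by *Cx3cr1* with *Cd48*, *Adgre1* and *Ptprc* at 0. Of 13 counted collagen and matrix genes 0 were higher and 1 lower, with a median of -0.06 and a summed log2 ratio of 0.02, and with *Fn1*, fibronectin, at 499 CPM against 406 CPM (0.30, 0.26 to 0.33).

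The same rule was applied to the PC5 library, which the choice of cells had not used. It gave 995 of 9950 kept cells, with 8955 others. There the score was made of few UMIs, with a lowest score of 1.09 per 10000 and a median of 3 score UMIs in a chosen cell and 0 in another, and 425 of the 995 cells had only 1 or 2. Choosing cells on so few UMIs makes the score genes themselves high, so their ratios in PC5 are not comparable in size with those in PC20. They were 3.96 for *Chac1* (10.1 CPM against 0.650 CPM), 3.37 for *Trib3*, 2.91 for *Ddit3* (110 CPM against 14.6 CPM), 2.64 for *Cth* and 2.35 for *Asns* (48.6 CPM against 9.52 CPM). *Ddit3* gave 58.4% of the score UMIs and led in 57.0% of the chosen PC5 cells. In the other PC20 cells *Ddit3* was at 777 CPM, above the 110 CPM of the chosen PC5 cells. Median depth was 17150 UMIs with 4019 genes in the chosen PC5 cells against 22154 UMIs with 4488 genes in the rest of PC5, and ribosomal protein genes took a median of 29.0% of UMIs against 31.2%. The part of these differences in the values that follow was not tested.

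In the chosen PC5 cells 66 of 9165 counted genes (0.72%), *Ddit3* and *Asns* among them, were at least 1.5-fold higher and 2 (0.0218%) lower, with a median of 0.07. Of the counted ATF4 regulators and targets 3 of 19 were at least 1.5-fold higher, against 1 of 26 in PC20, with a median of 0.36. Amino acid transporters gave 5 of 16, against 0 of 15, and the serine list 2 of 12, against 0 of 14, with *Mthfd2* at 74.3 CPM against 39.4 CPM (0.92) and *Psph* at 32.8 CPM against 18.6 CPM (0.82). The transporter count in PC5 was 0 of 12 after thinning, 0 of 12 with cells chosen on 1 part of split UMIs and compared on the other, and 0 of 16 in the top 20% of cells. *Slc7a5*, the large neutral amino acid transporter, named after its value was seen, was at 11.1 CPM against 6.12 CPM in PC5 (0.86) and 55.9 CPM against 55.8 CPM in PC20 (0.00). Cytosolic synthetases gave 1 of 23 in PC5, with a median of 0.26. The hypoxia list gave 0 of 18, with a median of 0.09, and *Ndrg1* was at 28.1 CPM against 20.9 CPM (0.43). The G2/M list gave 0 of 22 higher and 0 lower, with a median of 0.05. The share of cells with a *Mki67* or *Top2a* UMI in PC5 was 40.8% (37.7 to 43.9) against 45.4% (44.4 to 46.5), and after thinning 34.5% (31.1 to 37.99) against 35.5% (34.4 to 36.5). With 1 library at each passage, the difference between the libraries in these values was not tested.

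Giving the 5 genes equal weight in PC20 brought a different set of 475 cells, in which 0.382% of the 9951 counted genes were at least 1.5-fold higher and 2.62% lower. Its log2 ratios were 1.46 for *Cth*, 1.246 for *Chac1*, 0.80 for *Trib3*, 0.69 for *Asns* and 0.48 for *Ddit3*. The ATF4 list gave 3 of 26 at least 1.5-fold higher with a median of 0.27, namely *Atf3*, *Fgf21* and *Gadd45a* and not *Ddit4*, the serine list 0 of 14 with a median of 0.34 and the cytosolic synthetases 0 of 23 with a median of 0.30. The hypoxia median was 0.16, with 0 of 18 higher. Other list genes whose ratio changed sign included *Shmt1* at 0.36, *Mars2* at 0.15 and *Hmgcs1* at 0.08. The G2/M list was low in this set too, with 15 of 22 at least 1.5-fold lower and a median of -0.79.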

How the data were processed

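The authors mapped 10x 3′ reads (kit v3.1) to mm10 with Cell Ranger (5.0 per the labels, 5.0.1 per the file headers), called cell barcodes and deposited UMI counts of 31053 genes per barcode, not normalized. Here CPM, ratios and intervals were computed from counts summed over cells with Python 3.11.15, NumPy 2.4.6, SciPy 1.17.1 and pandas 2.3.3. Intervals are Poisson for CPM, conditional binomial for log2 ratios and Clopper-Pearson for shares, at the 95% level. UMIs are counted molecules, so depth sets these intervals, which say nothing of the spread between cultures. With 1 library per passage and cells of 1 library not being replicates, no test was made. Scrublet in Scanpy 1.11.5 called no cell a doublet, and doublets may remain.

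A gene was counted with a UMI in at least 10% of kept cells, and called by size at a fold of 1.5. Named genes are the 5 score genes, the 10 highest and 10 lowest ratios at 20 CPM or more (without mitochondrial genes, pseudogenes and unnamed models), in each of 27 lists up to 4 most abundant genes with the highest and lowest ratio, and 5 pericyte markers. The cells, lists and rules were chosen with earlier results of these data known. *Slc7a5*, the shares of UMIs in 10 cells and the AP-1 motif were chosen after values or sequences were seen. The computations were tested on simulated counts. Alternatives covered cell filters, depth, a random split of the UMIs into 2 parts, set size, score weights, library size, cell subsets, detection, fold and pseudocount. GENCODE M21 and RefSeq gave positions and promoters.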

Additional observations from a re-analysis of the deposited data

Results flagged for a closer look

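Genes and a list are given here because the cells highest in the score had log2 ratios of opposite sign in the PC20 and PC5 libraries, some of them close to 0 in PC5. With 1 library at each passage the difference was not tested. The log2 ratio of *Chac1* was -0.19 in PC20 and 3.96 in PC5, where few UMIs set the score. The PC20 value was 0.21 with cells chosen after thinning and 0.03 in the top 20% of cells, so its side of 0 depended on those choices, and the PC5 value was 2.50 with split UMIs. It was -1.09 and 0.25 (0.09 to 0.40) for *Cdkn3*, and -1.09 and 0.18 (0.13 to 0.22) for *Sorbs2*. It was -1.24 and 0.03 (-0.16 to 0.21) for *Cep55* and -1.13 and 0.05 (-0.02 to 0.12) for *Cenpf*, and the PC5 counting intervals of these 2 genes include 0. The median over the 22 G2/M genes was -0.83 and 0.05. In PC5 that median was -0.06 with split UMIs and -0.26 without *Asns* in the score. No cause was weighed.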

How the results depend on the processing

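With 1 library per passage no replicate could be left out, and the alternatives cannot show how cultures vary. No paired analysis was possible because each passage had 1 library and no result came from a test. Genes at least 1.5-fold higher and lower numbered 113 and 435. Thinning gave 74 and 222, the top 5% of cells 198 and 953, the top 20% of cells 59 and 202, and equal weights 38 and 261. Without *Ddit3* in the score 265 were lower. Counting genes seen in 1% of cells gave 350 and 1182, and in 50% of cells 46 and 48. A fold of 2 gave 18 and 56, and a fold 25% above level gave 481 and 1709. In PC5, where the same rule gave 66 genes higher, the number was 13 after thinning, 22 with split UMIs, 179 and 11 in the top 5% and 20% of cells, 25 with equal weights, 24 without *Ddit3*, 470 and 7 for genes seen in 1% and 50% of cells, 6 at a fold of 2 and 532 at a fold 25% above level.

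ATF4 regulators and targets past the fold numbered 1, but 2 in the top 5% of cells, 2 without *Ddit3*, 3 with equal weights (other genes than *Ddit4*), 3 in cells without a *Mki67* or *Top2a* UMI, 0 at a fold of 2 and 5 at a fold 25% above level. Without *Ddit3*, 1 serine gene and 1 cytosolic synthetase passed, against 0 and 0, and 1 transporter passed at a fold 25% above level, against 0. Of the chaperones 1 passed, but 0 after thinning, with equal weights, without *Ddit3*, as a mean over cells, in cells without a *Mki67* or *Top2a* UMI, in either depth subset, with a pseudocount or at a fold of 2, and 5 at a fold 25% above level. The share of cells with a *Mki67* or *Top2a* UMI was 60.2% in the *Ddit3*-high cells and 73.5% in the others. In sets chosen anew it was 48.8% against 59.4% after thinning, 50.5% against 64.6% with split UMIs, 68.8% against 72.6% with equal weights, 66.7% against 72.8% without *Ddit3*, 54.4% against 59.8% under the median UMI count and 78.2% against 85.9% at or over it. G2/M genes at least 1.5-fold lower numbered 18 of 22, but 13 after thinning, 14 in the top 20% of cells and as a mean over cells, 15 with equal weights, 8 without *Ddit3*, 8 under and 6 at or over the median UMI count, 4 at a fold of 2, 6 of 8 for genes seen in 50% of cells and 2 of 7 in cells without a *Mki67* or *Top2a* UMI. Among list medians that changed sign with equal weights and without *Ddit3* were 0.34 and 0.32 for serine genes, 0.16 and 0.19 for transporters, 0.14 and 0.22 for sterol genes, 0.27 and 0.35 for S-phase genes, -0.28 and -0.42 for p53 targets and -0.11 and -0.15 for autophagy genes. The ATF4 list median was -0.05 under the median UMI count.

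With equal weights the log2 ratio turned to -0.20 for *Akap12*, -0.73 for *Nr1d1*, -0.32 for *Pik3ip1*, -0.46 for *Bhlhe40*, -1.48 for *Nfkbia*, -0.010 for *Ankrd37* and -0.48 for *Bhlhe41*. Without *Ddit3* it turned to -1.19 for *Akap12*, -1.08 for *Nr1d1*, -0.69 for *Pik3ip1*, -0.55 for *Bhlhe40*, -0.032 for *Hilpda*, -0.015 for *Ndrg1*, -1.76 for *Nfkbia*, -0.11 for *Ankrd37*, -0.055 for *Pfkfb3*, -0.70 for *Bhlhe41*, 0.31 for *Sorbs2* and 0.11 for *Fasn*. In cells without a *Mki67* or *Top2a* UMI it was 0.71 for *Cep55*. The cause was not tested.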
